A study of Mus musculus with 9 samples.

Results

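Insulin and the insulin-like growth factors reach basal keratinocytes through a small set of receptors, adaptors and carriers, and 10 genes of that set were followed here. They were the receptors Igf1r, Insr and Igf2r, the adaptors Irs1 and Irs2, and the binding proteins Igfbp2, Igfbp3, Igfbp4, Igfbp5 and Igfbp6. They were chosen by gene name from a table of 22399 genes, and each name matched 1 row. The RNA came from keratinocytes of the basal layer of footpad epidermis, the dividing cells that supply the layers above. Cells were released with trypsin and sorted as positive for CD49f, an integrin chain of basal cells, and negative for CD34, which hair follicle stem cells carry. All 9 libraries came from wild-type C57BL/6 mice, in 3 groups of 3. Control mice ate a normal diet and HFD mice a high-fat diet, both at 5 months of age, and aged mice were 24 months old. The labels give no diet for the aged mice, no length of feeding, and do not say whether the 3 libraries of a group came from separate animals. The p-values then measure only the spread between these libraries, which may be technical.

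Binding of insulin or IGF-1 to the receptor kinases encoded by Insr and Igf1r leads to phosphorylation of the IRS adaptors, which recruit PI3 kinase and so activate AKT and mTOR and restrain the FOXO transcription factors. The secreted IGF-binding proteins hold IGF-1 and IGF-2 outside the cell, can keep them from their receptor or deliver them to it, and are cut by proteases. In epidermis IGF-1 is known mainly as a signal that dermal fibroblasts send to keratinocytes, whose growth it supports. Values are the deposited FPKM, fragments per kilobase of gene divided by a scale factor for each library. Levels of different genes can thus be set side by side per length. Groups were compared by limma on log2(FPKM + 1), with differences given ± SE. A gene was called where its p, adjusted after Benjamini-Hochberg over the 10367 genes that averaged 1 FPKM or more, was under 0.05.

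Reads recovered from the FPKM step that a single read makes summed to 23.5 to 35.8 M per library. The scale factor that the step gave was 24.1 to 35.5 M and differed from those sums. The sums exceeded the scale in every HFD library (26.4 against 25.8 M in HFD replicate 3) and in control replicate 3. They lay below it in the other libraries (31.5 against 32.5 M in control replicate 1). Basal keratinocyte markers summed to 23849 to 31755 FPKM per library. Of 10 fibroblast markers 4 (Lum, Pdgfrb, Mfap5 and Pi16) were listed at 0 in every library and 8 stayed below 1 FPKM. Of the 5 T cell and 5 melanocyte markers none reached 1 FPKM. Single markers of other cells did. These were Cd74 of Langerhans and myeloid cells (2.31 to 8.28 FPKM) and Cspg4 of endothelial and mural cells (10.3 to 25.5). Mbp of Schwann cells was at 5.95 to 7.94 FPKM, and Isl1 of Merkel cells at 0.0932 to 1.24. Transcripts of suprabasal cells were present, at a summed 4616 to 6102 FPKM in control, 5022 to 7001 in HFD and 6571 to 9044 in aged. Krt10 (means of 3865, 4478 and 5573 FPKM) and Krt1 (1260, 1542 and 1936) made up most of those sums. Of the 8 suprabasal markers 1 was called higher in aged than in control and 0 lower (12.5%, against 7.76% of all genes tested). On the first principal component aged replicate 3, at -0.41, lay between the other aged libraries, at 7.08 and 7.61, and the controls, at -17.0 to -12.4. In such bulk samples, fewer cells of a type and less RNA per cell cannot be told apart.

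The 10 genes covered a wide range of levels, and the binding proteins stood at both ends of it. Igfbp2 was the highest, with a mean of 432 FPKM in control, and ranked 86th of all 22399 genes by mean FPKM over the 9 libraries. Igfbp3 followed at 76.3 FPKM, Igfbp6 at 24.9 and Igfbp4 at 14.2. The receptors came next, with control means of 9.39 FPKM for Igf2r, 4.23 for Igf1r and 3.01 for Insr. Irs2 and Irs1 stood at 2.37 and 2.04 FPKM and Igfbp5 at 1.02. Neighbours in this order did not overlap in control, except Irs2 and Irs1, whose control libraries did. Igfbp5 reached 1 FPKM in 1 of 9 libraries and, with a mean of 0.709 FPKM over all of them, was the only one of the 10 below the minimum for the test. It was nevertheless covered by 67 to 194 reads per library, while Igfbp2 had 15368 to 29217 and Irs1 335 to 701.

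**Figure D1:**
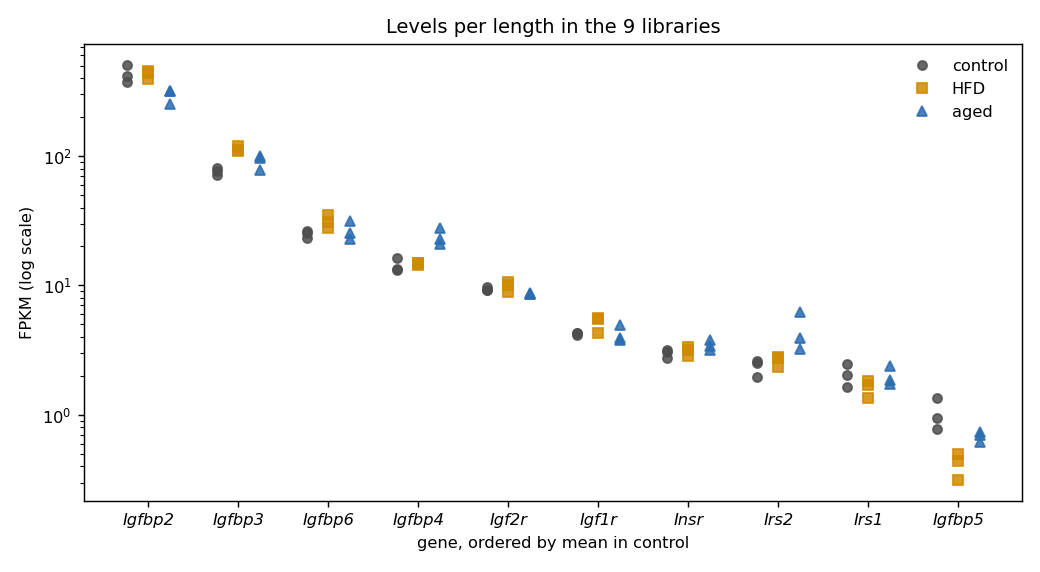
FPKM on a log scale for each of the 10 genes, ordered by the control mean, with 1 point per library (circles control, squares HFD, triangles aged). Igfbp2 lies above Igfbp3 in all 9 libraries, the receptors and IRS adaptors lie between 1.35 and 10.6 FPKM, and Igfbp5 is the lowest gene.

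The ligands were at or near the floor of the table. Ins1, Ins2 and Igf1 were listed at 0 in all 9 libraries. Igf2 was at 0.451, 0.370 and 0.487 FPKM in control, 0.162, 0.129 and 0.0406 with HFD and 0.216, 0.0495 and 0.0570 in aged. All control libraries were thus above all others for Igf2, at levels under the test's minimum, so no test was made.

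Letters before the start sites are shown for the 4 genes that were called in at least 1 comparison (Igfbp2, Igfbp3, Igfbp4 and Irs2), and for Irs1 beside its relative Irs2. Each window holds the 250 bases before the RefSeq start on GRCm38.p6, 5′ to 3′ on the gene's strand, at chr1:72824230-72824479 (plus strand) for Igfbp2, chr11:7213924-7214173 (minus) for Igfbp3, chr11:99040994-99041243 (plus) for Igfbp4, chr8:11008930-11009179 (minus) for Irs2 and chr1:82291440-82291689 (minus) for Irs1. The RefSeq start of Irs2 lies 471 bases from the GENCODE gene start, and those of the other 4 within 23 bases of it. Capitals mark matches, on either strand, to the letters TATAAA of the classical core promoter box, the CCAAT box, the letters GGGCGG known as the GC box, the letters CACGTG known as the E-box, the cyclic AMP response element TGACGTCA, the AP-1 site TGANTCA and, for FOXO factors, the core letters GTAAACA. No motif's letters contain those of another.
Igfbp2: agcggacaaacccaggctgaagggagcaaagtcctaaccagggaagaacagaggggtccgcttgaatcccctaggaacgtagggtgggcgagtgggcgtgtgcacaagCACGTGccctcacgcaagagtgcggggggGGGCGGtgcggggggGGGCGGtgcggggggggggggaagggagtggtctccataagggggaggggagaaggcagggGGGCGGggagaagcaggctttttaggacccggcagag
Igfbp3: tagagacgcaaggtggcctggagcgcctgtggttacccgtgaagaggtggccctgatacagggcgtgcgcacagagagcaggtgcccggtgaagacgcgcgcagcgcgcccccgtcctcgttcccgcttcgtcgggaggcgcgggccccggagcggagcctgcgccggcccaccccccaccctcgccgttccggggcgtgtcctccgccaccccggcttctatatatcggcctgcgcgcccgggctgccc
Igfbp4: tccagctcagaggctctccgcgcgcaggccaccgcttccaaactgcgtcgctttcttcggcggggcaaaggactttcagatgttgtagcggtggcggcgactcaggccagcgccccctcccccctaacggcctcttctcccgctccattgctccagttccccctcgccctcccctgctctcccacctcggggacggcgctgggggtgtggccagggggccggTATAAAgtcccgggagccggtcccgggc
Irs2: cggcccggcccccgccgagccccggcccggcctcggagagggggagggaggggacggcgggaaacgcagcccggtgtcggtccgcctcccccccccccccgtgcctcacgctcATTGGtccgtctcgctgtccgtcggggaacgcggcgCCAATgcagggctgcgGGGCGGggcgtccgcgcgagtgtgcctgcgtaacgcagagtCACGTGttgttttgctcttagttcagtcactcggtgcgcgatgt
Irs1: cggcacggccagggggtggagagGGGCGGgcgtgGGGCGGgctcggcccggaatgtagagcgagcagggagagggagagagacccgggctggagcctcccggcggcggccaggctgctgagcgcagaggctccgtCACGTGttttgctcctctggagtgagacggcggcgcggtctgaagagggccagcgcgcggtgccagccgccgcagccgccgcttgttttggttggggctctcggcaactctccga
Igfbp4 carries a TATA box that begins 28 bases before the start, as 12.37% of all 32851 windows of this length hold one somewhere. Irs2 has a pair of CCAAT boxes, 137 and 101 bases before the start, 1 GC box and 1 E-box. Igfbp2 has 3 GC boxes and 1 E-box, and Igfbp3 none of the exact letters searched. The Igfbp3 window does hold the similar letters TATATAT, which were not among those searched. The E-box, the letters bound by clock and MYC family factors, was in the windows of Irs1, Irs2, Igfbp2 and Igf2r, 4 of the 9 with a window, against 6.02% of all windows. The GC box was in 5 of the 9 (32.74% of all windows), the CCAAT box in 2 (33.85%) and the TATA box in 2. Insr had no entry. The cyclic AMP element, the AP-1 site and the FOXO core matched 0 of the 9 windows, against 1.55%, 6.75% and 3.17% of all windows. Such matches are descriptions of letters, not of bound sites.

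The comparison of HFD with control addressed the effect of a high-fat diet at the same age, and among the 9 tested genes it called Igfbp3 alone, which rose. Over all genes tested 17.0% were called in this comparison, 8.26% higher (856) and 8.76% lower (908). With libraries scaled to total FPKM that split was 597 higher and 1165 lower. Groups did not overlap for 3 of the 9 (Igf1r, Igfbp3 and Igfbp6, all higher in HFD), against 40.4% of all genes tested, 20.8% higher and 19.6% lower. The comparison of aged with control addressed what differs in 24-month-old animals, and it called 3 of the 9: Igfbp4 and Irs2 rose and Igfbp2 fell. Here 7.76% of all genes tested were called, 4.01% higher (416) and 3.74% lower (388), or 360 and 507 with scaling to total FPKM. Groups did not overlap for 4 of the 9 (Irs2 and Igfbp4 higher, Igfbp2 and Igf2r lower), against 27.8% of all genes tested, 13.7% higher and 14.1% lower. Aged against HFD, the test of whether those groups differ, called Igfbp4 higher and Igfbp2 lower in aged, with 7.99% of all genes called, 3.54% higher and 4.45% lower. Groups did not overlap for 5 of the 9 (Irs2 and Igfbp4 higher, Igfbp2, Igfbp3 and Igf2r lower), against 29.8% of all genes, 13.9% higher and 15.9% lower. By limma's F test over the 3 groups 4 of the 9 differed (Irs2, Igfbp2, Igfbp3 and Igfbp4), against 20.4% of all genes. HFD and aged are compared with the same control libraries, so these comparisons are not independent of each other.

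**Figure D2:**
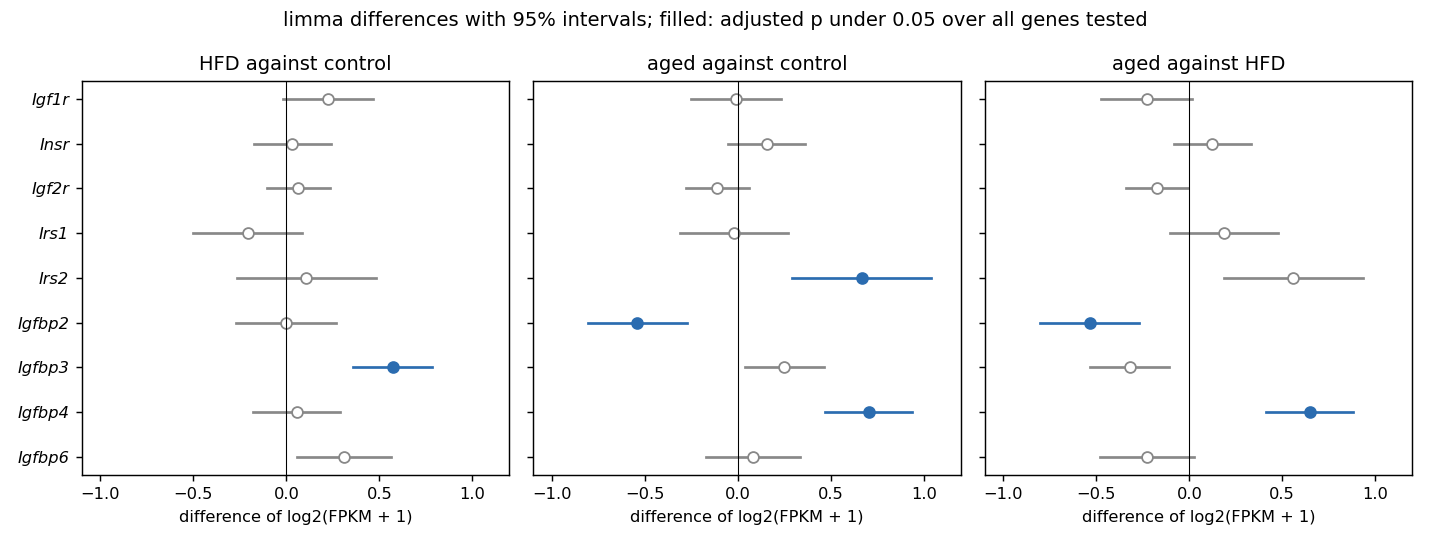
Differences of log2(FPKM + 1) with 95% intervals for the 9 genes tested, in each of the 3 comparisons, with filled points for genes called by limma. Igfbp3 is called in HFD against control (0.57), Irs2, Igfbp2 and Igfbp4 in aged against control (0.67, -0.54 and 0.70) and Igfbp2 and Igfbp4 in aged against HFD (-0.54 and 0.65).

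Igf1r (chr7:67952827-68233668 on GRCm38, plus strand) encodes the receptor kinase for IGF-1. It was at 4.14, 4.28 and 4.26 FPKM in control, 4.28, 5.64 and 5.46 with HFD and 3.93, 3.79 and 4.94 in aged. HFD replicates 2 and 3 were the highest libraries, while HFD replicate 1 exceeded the highest control by less than 0.001 FPKM. The difference of HFD from control was 0.22 ± 0.11 on the log2 scale (95% interval -0.02 to 0.46, limma adjusted p = 0.181), and that of aged from control -0.0086 ± 0.11 (-0.25 to 0.23, adjusted p = 0.972).

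Insr (chr8:3122061-3279617, minus strand) encodes the insulin receptor. It was at 3.20, 3.06 and 2.76 FPKM in control, 2.83, 3.15 and 3.32 with HFD and 3.41, 3.18 and 3.81 in aged, and the groups overlapped in every pairing. The 95% intervals of its differences from control were -0.18 to 0.24 for HFD and -0.05 to 0.36 for aged, and it was not called (limma adjusted p = 0.842 and 0.329). Igf1r exceeded Insr in all 9 libraries. The ratio of their FPKM was 1.295, 1.396 and 1.541 in control, 1.511, 1.792 and 1.644 with HFD and 1.154, 1.192 and 1.295 in aged. All HFD libraries had a higher ratio than all aged ones, a difference of -0.35 for aged against HFD on the log2(FPKM + 1) scale. An exact two-sided permutation test gave p = 0.1, the smallest that 3 against 3 allows, and 0.2 after adjustment over the 6 ratio tests made.

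Igf2r (chr17:12682406-12769664, minus strand) encodes the mannose 6-phosphate receptor, which takes up IGF-2 for degradation, sorts lysosomal enzymes and is imprinted in mouse. It was at 9.30, 9.15 and 9.71 FPKM in control, 8.89, 10.1 and 10.6 with HFD and 8.56, 8.53 and 8.77 in aged. Every aged library lay below every control and HFD library, by a small margin. The differences were -0.11 ± 0.08 against control and -0.17 ± 0.08 against HFD, neither of them called (limma adjusted p = 0.393 and 0.191). Its body is crossed on the other strand by Airn, with no exon of one over an exon of the other.

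Irs1 (chr1:82233101-82291416, minus strand) encodes the first of the adaptors that the receptors phosphorylate. It was at 1.63, 2.04 and 2.46 FPKM in control, 1.70, 1.35 and 1.83 with HFD and 1.86, 1.72 and 2.39 in aged. The groups overlapped in all pairings, and the range within control was wider than the distance between any group means. Its differences from control were -0.21 ± 0.13 in HFD and -0.02 ± 0.13 in aged (limma adjusted p = 0.301 and 0.940). Its exons share 2822 bases with those of Gm9747 on the opposite strand, listed at no more than 0.0558 FPKM. The sources used here do not give the strand setting of the counting, so the level of Irs1 is uncertain.

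Irs2 (chr8:10984681-11008458, minus strand), the other main adaptor, rose in aged. It was at 2.53, 1.95 and 2.63 FPKM in control, 2.32, 2.74 and 2.81 with HFD and 3.23, 3.94 and 6.24 in aged. All aged libraries were above all others, and aged replicate 3 stood well above the other aged libraries. The difference of aged from control was 0.67 ± 0.17 (limma adjusted p = 0.0381), that of aged from HFD 0.56 ± 0.17 (adjusted p = 0.0693) and that of HFD from control 0.11 ± 0.17 (adjusted p = 0.695). Without aged replicate 3 the difference from control was 0.44 (adjusted p = 0.0488). The call ended without control replicate 1, 2 or 3 or aged replicate 2 (adjusted p 0.0625, 0.125, 0.0778 and 0.0721), with no filter on low values (0.0997) and with the 6 compared libraries alone (0.0681). Its exons share 162 bases with an opposite-strand transcript, 9530052E02Rik.

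The rise of Irs2 came with a rise of immediate early genes, which cells switch on within minutes of a stimulus, the handling of tissue included. Of 15 such genes 11 were called higher in aged than in control and 0 lower. Their FPKM summed to 856 to 1119 in control, 825 to 1195 in HFD and 2020 to 2603 in aged, the highest being aged replicate 3, the library that was also highest for Irs2. In aged replicates 1 to 3 the sums were 2020, 2051 and 2603, and Irs2 was at 3.23, 3.94 and 6.24 FPKM. In control replicates 1 to 3 the sums were 856, 1119 and 979, and Irs2 was at 2.53, 1.95 and 2.63 FPKM. In HFD replicates 1 to 3 the sums were 992, 825 and 1195, and Irs2 was at 2.32, 2.74 and 2.81 FPKM. The part of the immediate early genes in the values of Irs2 was not tested. Their sum, like those of the suprabasal and of the hair follicle and sebaceous markers, was higher in every aged library than in every control library, and so moved with the calls of Igfbp2 and Igfbp4 as well. The ratio of Irs1 to Irs2 FPKM was 0.644, 1.04 and 0.934 in control, 0.731, 0.494 and 0.651 with HFD and 0.578, 0.438 and 0.384 in aged. All aged libraries were below all controls, a difference of -0.69 on the log2(FPKM + 1) scale (exact two-sided permutation p = 0.1, the smallest possible, and 0.2 adjusted over the 6 ratio tests).

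Igfbp2 (chr1:72824503-72852474, plus strand) encodes a secreted binding protein that can also bind integrins through an RGD motif. It was at 375, 413 and 507 FPKM in control, 395, 452 and 436 with HFD and 251, 320 and 317 in aged. Every aged library lay below every other library, while HFD libraries fell inside the control range. It fell in aged by 0.54 ± 0.12 against control (limma adjusted p = 0.0242) and by 0.54 ± 0.12 against HFD (adjusted p = 0.0234). HFD differed from control by -0.0031 ± 0.12 (95% interval -0.27 to 0.26). The call against control ended without control replicate 2 or 3 or aged replicate 1 (adjusted p 0.0619, 0.0797 and 0.0882) and with no filter on low values (0.0720). That against HFD ended without HFD replicate 2 or 3 or aged replicate 1 (0.0847, 0.0743 and 0.0765) and with no filter (0.0758). Suprabasal markers were highest in aged replicate 1, the library with the least Igfbp2. In replicates 1 to 3 their sums were 5177, 6102 and 4616 FPKM in control and 6577, 7001 and 5022 in HFD. They were 9044, 7545 and 6571 FPKM in aged. The part of suprabasal cells in the fall of Igfbp2 in aged was not tested.

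Igfbp3 (chr11:7206086-7213923, minus strand) encodes the main carrier of IGFs in serum, which keratinocytes also secrete. It was at 80.8, 71.2 and 76.9 FPKM in control, 112, 110 and 119 with HFD and 101, 96.2 and 77.3 in aged. HFD libraries were the highest 3 of the 9, aged replicates 1 and 2 came next, and aged replicate 3 lay inside the control range. It rose in HFD by 0.57 ± 0.10 (limma adjusted p = 0.00411), from a mean of 76.3 ± 4.81 to 114 ± 4.97 FPKM (SD, n = 3). The call held in all 6 fits with 1 compared library left out (adjusted p 0.00963 to 0.0223). The difference of aged from control was 0.25 ± 0.10 (adjusted p = 0.129), but without aged replicate 3 it was 0.37 and called (adjusted p = 0.0150). Sweat gland markers, led by Acta2, summed to 21.3 to 29.6 FPKM in HFD, 11.1 to 11.9 in control and 10.1 to 12.2 in aged, with Krt8, Krt18 and Krt19 below 1 FPKM in every library. Acta2 (means of 5.68 FPKM in control and 13.2 in HFD) and Ehf (2.49 and 9.35) carried this. The HFD means of the other 6 markers with reads were below those of control, for example Aqp5 at 0.957 and 0.586 FPKM. Their part in the rise of Igfbp3 was not tested.

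Igfbp4 (chr11:99041244-99054392, plus strand) encodes a binding protein that mostly holds IGFs back from their receptor and is cut by the protease PAPP-A. It was at 13.1, 13.3 and 16.3 FPKM in control, 14.4, 14.9 and 15.0 with HFD and 22.8, 20.95 and 27.9 in aged. All aged libraries were above all 6 libraries of 5-month-old mice, which overlapped each other. It rose in aged by 0.70 ± 0.11 against control (limma adjusted p = 0.00373) and by 0.65 ± 0.11 against HFD (adjusted p = 0.00508), and HFD differed from control by 0.05 ± 0.11 (adjusted p = 0.756). Both calls held with each compared library left out in turn (adjusted p 0.00580 to 0.0197 and 0.00887 to 0.0217). Igfbp4 is abundant in dermal fibroblasts. Fibroblast markers summed to 10.1 to 11.1 FPKM in aged, 11.1 to 15.4 in control and 10.1 to 10.96 in HFD. Fbln1 and Dcn made up most of those sums, and the collagen gene Col1a1 reached at most 0.176 FPKM. Hair follicle and sebaceous markers, led by Krt79, summed to 203 to 231 FPKM in aged. Their sums were 81.7 to 149 FPKM in control and 87.6 to 117 in HFD. Krt79 (means of 46.7 FPKM in control and 100.7 in aged), Scd1 (40.3 and 56.2) and Mgst1 (27.2 and 42.0) made up most of them. Cd34, Lgr5 and Krt75 stayed below 1 FPKM in every library. The part of these markers, and of the fibroblast markers, in the rise of Igfbp4 was not tested.

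Igfbp5 (chr1:72857932-72874884, minus strand) lies 5.5 kb from Igfbp2, with the 3′ ends of the pair facing each other, and encodes a binding protein that also attaches to matrix. It was at 0.947, 1.34 and 0.773 FPKM in control, 0.314, 0.442 and 0.503 with HFD and 0.743, 0.618 and 0.7005 in aged. The groups did not overlap in any pairing, with control highest and HFD lowest. In reads, these were 185, 194 and 145 in control, 67, 72 and 78 with HFD and 148, 118 and 129 in aged. With no filter on low values limma gave -0.50 ± 0.10 for HFD against control (adjusted p = 0.0265, with 7.61% of all 15708 genes called). Limma-voom on the recovered reads gave -1.27 ± 0.31 (adjusted p = 0.0136, with 15.2% of 12372 genes called). For aged against control these were -0.25 ± 0.10 (adjusted p = 0.209) and -0.50 ± 0.26 (adjusted p = 0.244). The first scale understates the change of so low a gene. The summed fibroblast markers, given under Igfbp4, were also lower in every HFD library than in every control. Dcn, a matrix proteoglycan, carried this, with means of 5.22 FPKM in control and 2.03 in HFD, while the highest marker, Fbln1, was at 7.75 and 8.23. The part of either in the values of Igfbp5 was not tested.

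Igfbp6 (chr15:102144362-102149511, plus strand) encodes a binding protein with a preference for IGF-2. It was at 23.1, 25.5 and 26.2 FPKM in control, 27.8, 35.0 and 31.1 with HFD and 22.9, 31.6 and 25.5 in aged. HFD libraries were all above control, and aged libraries spread over both ranges. The difference of HFD from control, 0.31 ± 0.12, was not called (limma adjusted p = 0.0844). After a correction for the GC content of transcripts it was 0.53 and called (adjusted p = 0.0165). It was also called with the 6 compared libraries alone (0.0425).

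**Figure D3:**
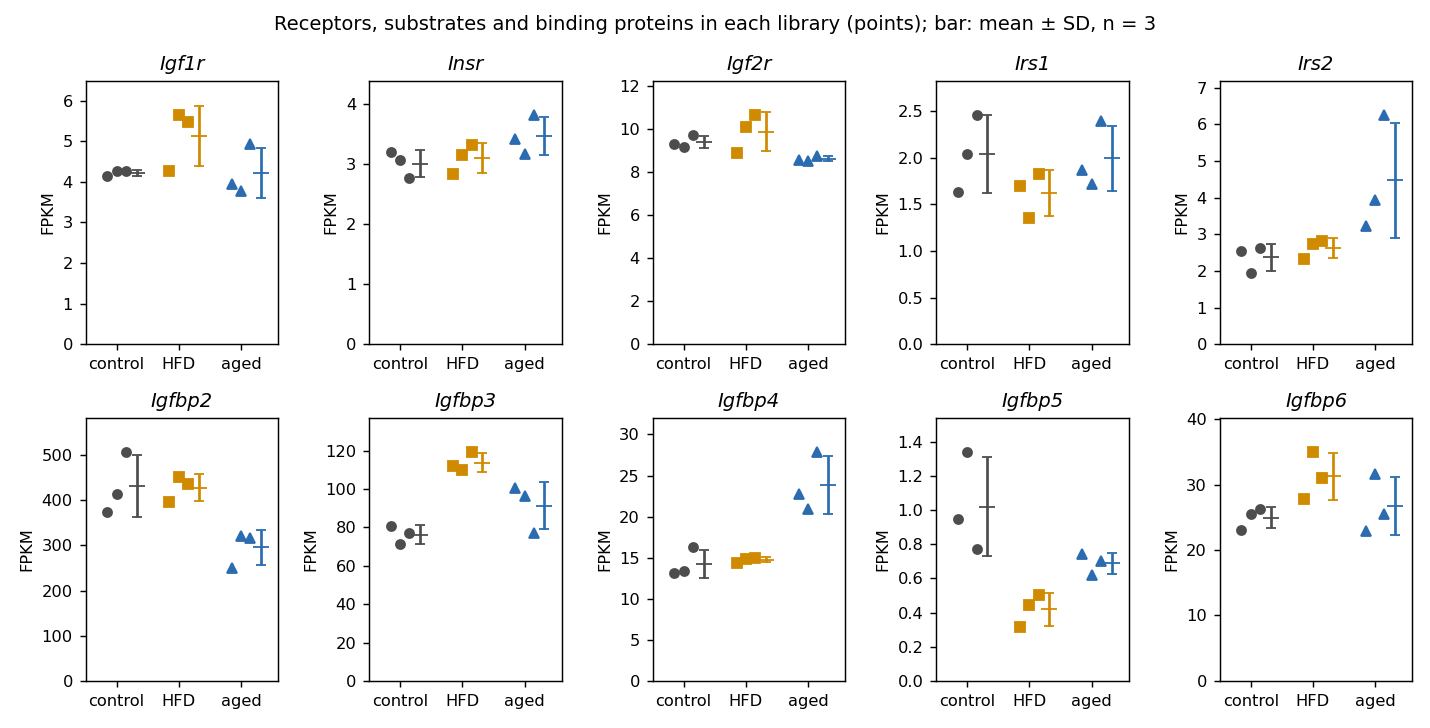
FPKM of the 10 genes, each on its own axis from 0, with 1 point per library and the mean ± SD (n = 3) beside each group. HFD stands apart from control for Igfbp3 (110 to 119 against 71.2 to 80.8 FPKM), and aged for Igfbp2 (251 to 320 against 375 to 507) and Igfbp4 (20.95 to 27.9 against 13.1 to 16.3).

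The 5 binding proteins together summed to 548 ± 70.1 FPKM in control, 588 ± 33.2 with HFD and 438 ± 36.6 in aged (SD, n = 3). Igfbp2 made up most of that sum in each library. Its share was 78.6% ± 2.39 in control, 72.7% ± 1.03 with HFD and 67.3% ± 3.88 in aged. Igfbp4 held 2.599% ± 0.0597 in control, 2.51% ± 0.0963 with HFD and 5.47% ± 0.904 in aged, and Igfbp3 14.1% ± 2.11, 19.4% ± 1.297 and 21.01% ± 4.04. Libraries of both HFD and aged had a smaller share of Igfbp2 and a larger one of Igfbp3 than every control library. Shares of 1 sum depend on each other, so a share can move while the FPKM of its gene does not. In HFD the FPKM of Igfbp2 lay inside the control range. In aged replicate 3 Igfbp3 was also inside it, at 77.3 FPKM, but held 17.2% of the sum, against at most 16.4% in control. The share of Igfbp4 was larger in every aged library than in every control and HFD library.

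**Figure D4:**
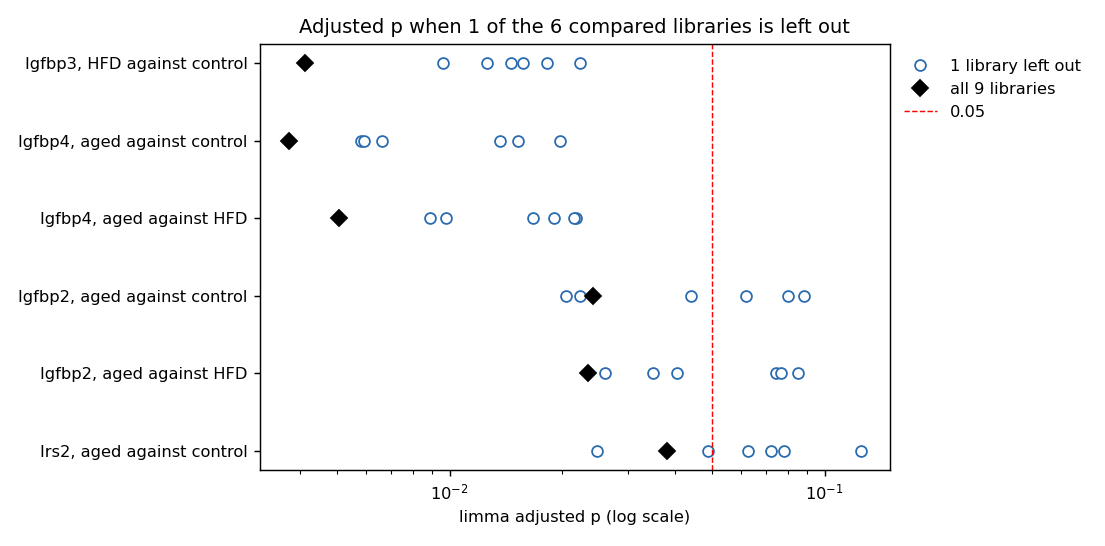
Limma adjusted p on a log scale for the 6 calls among the tested genes, with all 9 libraries (diamonds) and with each of the 6 compared libraries left out (circles), and a dashed line at 0.05. The circles of Igfbp3 and Igfbp4 stay below the line (highest 0.0223), and those of Igfbp2 and Irs2 fall on both sides of it, up to 0.0882 and 0.125.

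Around these 10 genes, 81 other genes of insulin and IGF signalling were listed, of which 61 were tested. HFD libraries had 2 of them higher and 5 lower than control (11.5% called, against 17.0% of all genes). The median difference of HFD from control was 0.0030, against 0.0094 over all genes. Aged libraries had 4 higher and 1 lower than control (8.20%, against 7.76%), with a median of 0.0012, against -0.0056 over all genes. Aged against HFD called 2 higher and 1 lower (4.92%, against 7.99%), with a median of -0.0076, against -0.0027 over all genes.

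Of 9 other binding proteins, their proteases and inhibitors, 3 were tested. Igfbp7, a matrix-bound relative with low affinity for IGFs, rose in HFD, from 69.4, 66.8 and 83.8 FPKM in control to 95.7, 91.8 and 115 (0.46 ± 0.11, limma adjusted p = 0.0163). In aged it was at 66.0, 63.4 and 72.0 FPKM, below all HFD libraries (-0.58 ± 0.11 against HFD, adjusted p = 0.00865). The rise against control was lost without HFD replicate 3 (adjusted p = 0.0552) and without control replicate 2 (0.0667). Htra1, a serine protease that cuts IGF-binding proteins, rose in aged, from 40.6, 38.9 and 49.6 FPKM to 66.1, 59.1 and 57.7 (0.50 ± 0.09, adjusted p = 0.0102). That call held with each library left out (adjusted p up to 0.0440), while the one against HFD (0.33 ± 0.09, adjusted p = 0.0491) ended whichever of the 6 libraries was left out and with no filter on low values (0.0934). Pappa, which encodes PAPP-A, had mean FPKM of 3.50, 2.90 and 2.69 in control, HFD and aged and was not called. Igfbp1, Igfbpl1 and Pappa2 were listed at 0 in all libraries.

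Of 14 genes that restrain the receptors or their signal 11 were tested, and the one call was Socs3, a feedback inhibitor that cytokines and insulin induce. It was at 19.0, 19.5 and 23.1 FPKM in control, 17.8, 22.4 and 28.2 with HFD and 29.5, 45.6 and 43.1 in aged. Aged libraries were above all others (0.89 ± 0.17 against control, limma adjusted p = 0.0140, and 0.76 ± 0.17 against HFD, adjusted p = 0.0234). The first call ended without control replicate 2 or aged replicate 2 (adjusted p up to 0.0507), and the second without HFD replicate 1 or 2 or aged replicate 2 or 3 (up to 0.0766). Both also ended when low values were not filtered out (0.0528 and 0.0818). Socs3 is itself an early response gene and rose beside the immediate early genes given above, whose part was not tested. Ptpn1, the phosphatase that resets the insulin receptor, was not called in any comparison.

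Among 14 receptor relatives and adaptors, of which 9 were tested, Sh2b1, an adaptor that enhances insulin receptor signalling, fell in HFD by 0.38 ± 0.07 (limma adjusted p = 0.00664). After the GC correction that call was lost (-0.18, adjusted p = 0.116). Of 12 PI3 kinase and AKT genes 10 were tested. Pik3ca, a catalytic subunit, rose in HFD by 0.25 ± 0.07 (adjusted p = 0.0289), and Pik3cb, another, rose in aged by 0.44 ± 0.09 (adjusted p = 0.0193). Pik3ca was not called whichever of the 6 libraries was left out (adjusted p 0.0605 to 0.0931) or after the GC correction (0.308), nor Pik3cb without control replicate 2 or 3 or aged replicate 1 (up to 0.0714). Akt1 and Akt2 were not called.

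All 17 genes of the mTOR branch were tested. Akt1s1, an inhibitory subunit of mTORC1, and Rps6kb2, an S6 kinase, fell in HFD by 0.35 ± 0.09 and 0.33 ± 0.10 (limma adjusted p = 0.0267 and 0.0441). Ddit4, a stress-induced inhibitor of mTORC1, rose in aged by 0.41 ± 0.11 (adjusted p = 0.0407). Each of these calls ended in at least 4 of 6 fits with 1 library left out, with no filter on low values (0.0567, 0.0873 and 0.0909), and, for those in HFD, after the GC correction. The 4 FOXO genes, Foxo1, Foxo3, Foxo4 and Foxo6, were all tested and none was called in any comparison by limma (1 had an unadjusted p under 0.05, in aged against HFD). All 7 genes of mannose 6-phosphate sorting, the route that Igf2r serves, were tested. Gga1, a sorting adaptor, and Gnptg, a subunit of the enzyme that makes the tag, fell in HFD (adjusted p = 0.0133 and 0.0468), and Nagpa, which uncovers the tag, fell in aged (adjusted p = 0.0368). Gga1 was lost without HFD replicate 2 (adjusted p = 0.0603), without control replicate 2 (0.0557) and after the GC correction (adjusted p = 0.542). Gnptg was lost whichever library was left out (adjusted p up to 0.151) and with no filter (0.0965), and Nagpa without control replicate 2 or 3 or aged replicate 1 or 2 (adjusted p up to 0.124). The call of Nagpa also ended with no filter on low values (0.0709), the 6 compared libraries alone (0.0682) and voom (0.0619 and 0.0646), and with the GC correction it lay just inside the threshold (0.05 after rounding).

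**Figure D5:**
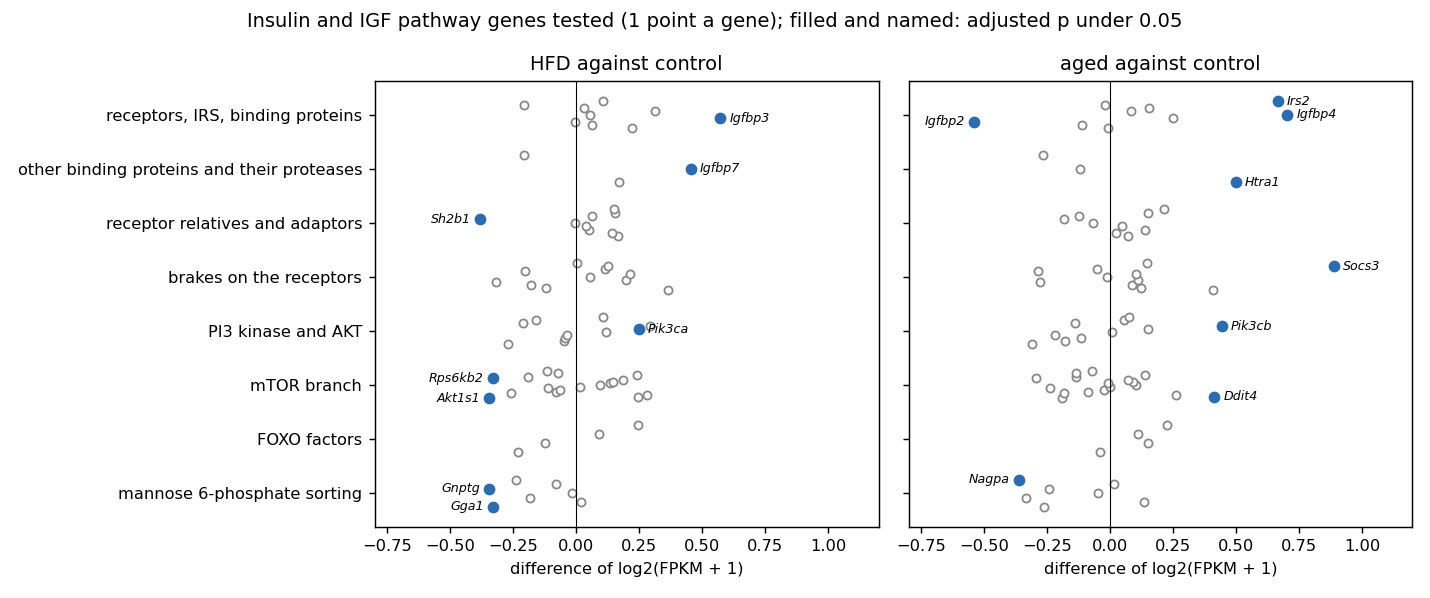
Differences of log2(FPKM + 1) from control in HFD (left) and aged (right), with 1 point for each tested gene of the 10 genes and of 7 further lists, filled and named where limma called it. Called genes are scattered over the lists, the largest difference being that of Socs3 in aged (0.89).

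For each gene that was called, the 3 genes with the most similar pattern were taken by Pearson's r of log2(FPKM + 1) over the 9 libraries, as a description of a best match among all genes tested and so with no p. Igfbp3 was closest to Tbc1d8b, Vps35 and Capza2 (r = 0.994, 0.989 and 0.985), each with its highest mean in HFD. Igfbp2 was closest to Tcof1, Rbm14 and Srpr (r = 0.990, 0.970 and 0.959). Igfbp4 was closest to Axl, Myo6 and Coq8a (r = 0.968, 0.958 and 0.947). Axl, a receptor kinase for GAS6, was at a mean of 19.4 FPKM in control, 22.0 with HFD and 34.1 in aged. Irs2 was closest to Lmbr1, Tprgl and Bcl10 (r = 0.960, 0.941 and 0.932). By rank their correlations with Irs2 were lower (Spearman's rho 0.833, 0.783 and 0.833).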

How the data were processed

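RNA-seq of sorted basal keratinocytes was available as 1 table, in which the authors deposited FPKM for 22399 genes with 1 column per library. The submitters' processing notes name the build mm10, the tools HTSeq 0.11.2 and DESeq2 1.30.0, STAR 2.6.0c and cutadapt, with no roles. Which of them made the FPKM, from which gene lengths, and whether by strand is not given in the sources used here. The single-cell data that the series describes were not analysed here.

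Columns were matched to samples by title. FPKM times the merged exon length (GENCODE M21, GRCm38) gave whole reads for 98.1% to 98.3% of values under 1000 reads (tolerance 0.02), and for all 10 genes followed here in every library. The scale factor of each library and the reads come from that step, and depth is the sum of those reads. Limma 3.58.1 (R 4.3.3) was fitted to log2(FPKM + 1) of the 10367 genes that averaged 1 FPKM or more, with trend and a mean per group over the 9 libraries (residual df 6, prior df 5.5). Fold changes on this scale understate the change of low genes. Ratios were compared with exact permutation tests in scipy 1.17.1. All 10 genes are named. Of the pathway lists, called genes were counted and up to 4 per list and comparison with the smallest unadjusted p named, and Ptpn1, Akt1, Akt2, Pappa, Igf2 and genes listed at 0 were named after their values were seen. The genes and lists were chosen with earlier results of these data known. Replicate numbers were not used to pair the libraries in the main fit, and the labels do not say whether a number marks a shared experiment. The limma and GC steps were tested on simulated data. Alternatives were a pseudocount of 0.1, no filter, a minimum of 5 FPKM, quantile normalization, scaling to total FPKM, a GC correction (loess, span 0.5), a replicate block, limma's robust setting, the 6 compared libraries alone and each library left out. Limma-voom on recovered reads, for the tested genes or for genes with a mean of at least 10 reads, was chosen after seeing the data. Start windows came from RefSeq (GRCm38.p6).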

Additional observations from a re-analysis of the deposited data

How the results depend on the processing

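No gene reversed direction while called, among the 10 genes and the called genes of the pathway lists. Of the calls among the 10, Igfbp3 in HFD and Igfbp4 in aged (against control and HFD) held in all 12 other settings as well as without each library. The numbers of genes called moved more. Among the 9 tested genes, HFD against control called 2 higher, not 1, with the GC correction, the replicate block, both together and the 6 compared libraries, and 1 lower, not 0, with no filter and with voom at 10 reads (Igfbp5). Aged against control called 1 higher, not 2, with no filter, a minimum of 5 FPKM and the 6 libraries, and 0 lower, not 1, with no filter. Aged against HFD called 2 higher, not 1, with the replicate block and voom (either gene set), 0 lower, not 1, with no filter, and 2 lower with the block and GC correction together and with voom.

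Among pathway genes in HFD, the 2 higher became 1 with scaling to total FPKM, 5 with the replicate block and 4 with voom, and the 5 lower became 3 with no filter and 1 with the GC correction, alone or with the block. In aged against control the 4 higher became 2 with no filter, and the 1 lower became 2 with quantile normalization, 3 with total scaling, 5 with the replicate block, 0 with the block and GC correction and with the 6 libraries, and 2 and 3 with voom on the tested genes and at 10 reads. In aged against HFD the 2 higher became 1 with a pseudocount of 0.1 and with the GC correction, alone or with the block, and 0 with no filter.

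Over all genes, the 908 lower in HFD became 597 with no filter, 555 with the GC correction and 598 with that and the replicate block. In aged against control the 416 higher became 274 with the 6 libraries, and the 388 lower became 244 with no filter and 195 with the 6 libraries. In aged against HFD the 367 higher became 225 with no filter.

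With 1 library left out, HFD against control called 385 to 631 genes higher (856 with all) and 364 to 719 lower (908), and 0 to 3 pathway genes higher and 1 to 3 lower. Aged against control called 190 to 592 higher (416) and 114 to 662 lower (388), 1 to 3 of the 9 genes higher and 0 to 1 lower, and 1 to 3 pathway genes higher and 0 to 4 lower. Aged against HFD called 168 to 271 higher (367) and 200 to 391 lower (461), 1 to 2 of the 9 genes higher and 0 to 1 lower, and 0 to 1 pathway genes higher. Apart from fewer samples or other genes tested, the cause was not tested.

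Same-numbered libraries deviated together with correlations of -0.05 to 0.27, against -0.29 to 0.22 for libraries of different numbers. Those among the replicate 3 libraries were 0.27, 0.185 and 0.21. Not every library correlated best with its own number (control replicate 1 was at 0.06 with HFD replicate 1 and 0.18 with HFD replicate 2). The titles number the libraries of each group but do not say whether a number marks a shared experiment. Pairing by number is therefore uncertain, and the replicate block is given here alone. That block called Igfbp6 higher in HFD than in control (limma adjusted p = 0.0219), beside Igfbp3, and Irs2 higher in aged than in HFD (0.0366). Igfbp5, with 67 to 194 reads, was the gene whose precision depth limited most.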
